A study of Mus musculus with 4 samples.

Results

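Astrocyte genes in the medial prefrontal cortex (mPFC) were compared between mice with CUMS-induced depression-like behavior and control mice. They were 38 genes, listed by symbol under the label astrocyte genes, and 38 of 38 were found among the 17778 genes of the table. Some of them are also expressed by other brain cells. The mice were juvenile males of the C57BL/6 strain (C57BL/6J in the methods of the study). The CUMS group (2 libraries) had gone through chronic unpredictable mild stress (CUMS), a schedule of social isolation, restraint, tilted or damp cages, noise, strobe light and disturbed day rhythm. Only stressed mice that met the criteria of all 3 behavior tests (sucrose preference, Y-maze and forced swimming) were taken into this group, and stressed mice without behavioral change were not sequenced. The Control group (2 libraries) was housed without these stressors. Both sides of the mPFC were dissected on the day after the tests, and mRNA was captured by its poly(A) tail. It is not stated whether a library came from a single mouse.

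Astrocytes are the star-shaped glia of the brain. They take up glutamate and potassium around synapses, turn glutamate into glutamine, pass metabolites through gap junctions, cover blood vessels with endfeet, and secrete lipoproteins and proteins that act on synapses. After injury many of them enlarge and raise the filament protein GFAP, a state called reactive.

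Expression was given as mean RPKM (reads scaled to gene length and to the size of the library), already averaged over the 2 libraries of a group. A level can therefore be compared between genes per length, but no value exists for a single library, so how much mice of a group vary is unknown. No test was possible, and a difference is described by its log2 ratio (CUMS mean over Control mean) and by whether it reached 1.5-fold. The 95% counting interval printed after a ratio is an exact Clopper-Pearson interval from fragment numbers estimated from the steps between low values, about 7385524 fragments per Control and 7446016 per CUMS library. It covers counting error only. The 38 genes rested on 404 to 56312 estimated fragments over both groups (median 2746.5). In tissue as a whole, fewer astrocytes and less RNA per astrocyte cannot be told apart.

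All 38 genes were expressed in both groups, from 3.25 RPKM for Chrdl1 to 1373 RPKM for Cst3 in Control and from 3.46 RPKM for Agt to 1304 RPKM for Cst3 in CUMS. Their median level was 32.9 RPKM in Control against 28.6 RPKM in CUMS, against 5.53 and 5.34 RPKM over all genes. In Control 12 of the 38 reached 100 RPKM. The 5 highest genes, Cst3, Apoe, Glul, Aldoc and Clu, held 64.7% of the summed level of the list, so that a sum over the list mostly describes these genes. Each of the 38 reached the minimum of 0.5 RPKM in either group that was set for a ratio, and 35 reached 5 RPKM. The plot of levels by gene shows the wide range and the mostly small steps between groups.

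**Figure D1:**
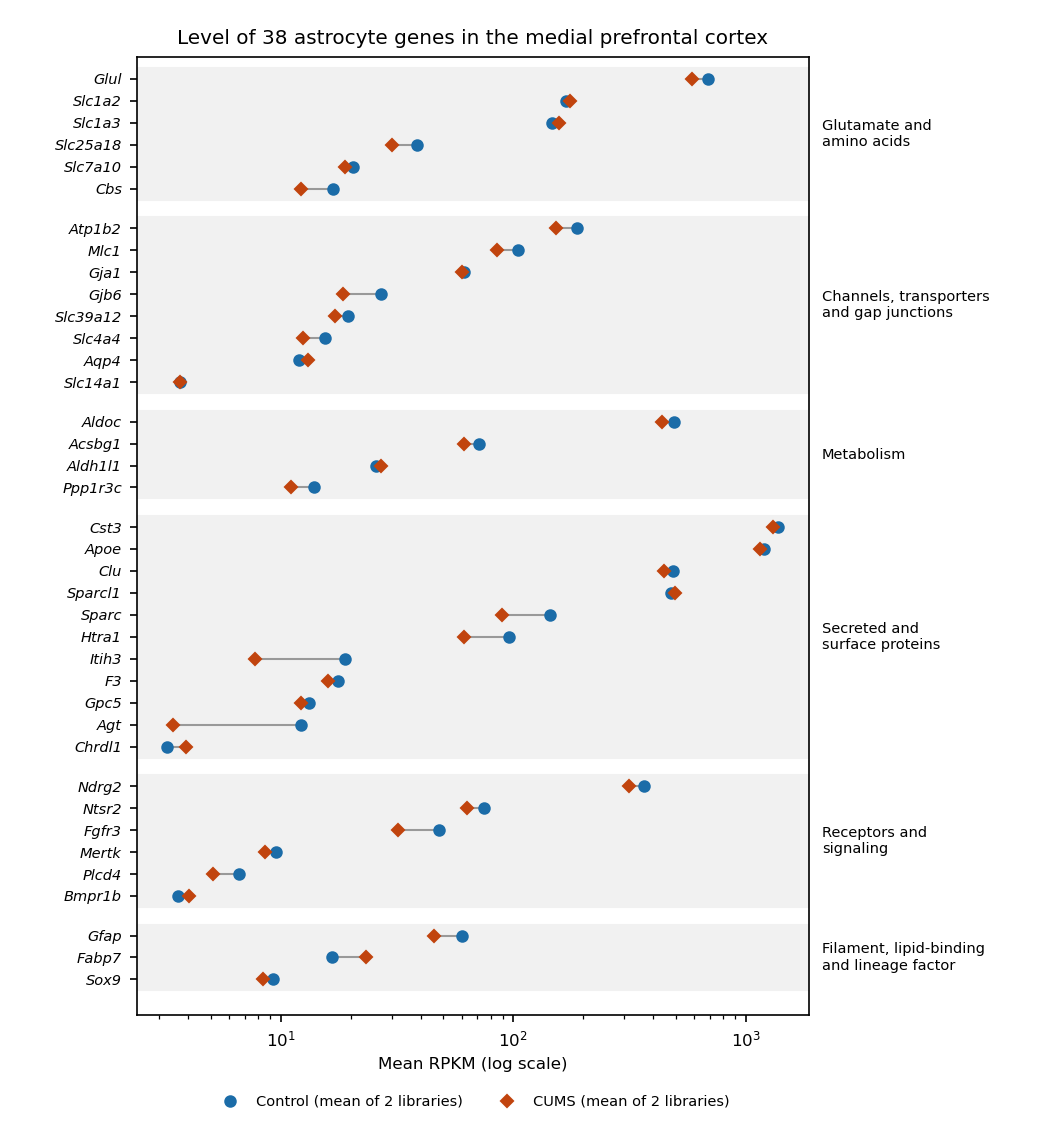
Mean RPKM (log scale) of each of the 38 astrocyte genes in Control (circles) and CUMS (diamonds), grouped by the role of the protein. Most pairs lie close together, whereas Agt and Itih3 stand far apart, from 12.2 to 3.46 RPKM and from 19.0 to 7.79 RPKM.

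Astrocyte genes were mostly lower in CUMS, by a small amount. Of the 38 genes, 29 had a lower and 9 a higher mean in CUMS (76.3% lower), where 53.2% of all genes of at least 0.5 RPKM were lower. Their median log2 ratio was -0.17, against -0.015 over all these genes. The lower genes had a median ratio of -0.25 and the higher genes of 0.11. A fold of at least 1.5 was reached by 5 genes, Agt, Itih3, Sparc, Htra1 and Fgfr3, all lower in CUMS. That is 5 of 38, where 4.42% of the 14257 genes of at least 0.5 RPKM were lower by this fold and 2.79% were higher. Large folds are rarer in well expressed genes. Among the 9397 genes of at least 5 RPKM, to which 35 of the 38 belong, 1.28% were lower by 1.5-fold and 0.319% were higher, with 5 and 0 astrocyte genes among them. Fgfr3, at 1.51-fold, lay just inside the threshold and Gjb6, at 1.46-fold, just outside it. The study lists 4 of the 5 genes as changed on these same libraries, so that they are not independent of it. Over the other 34 genes the median ratio was -0.15, with 25 lower. Only 1 of these 34, Fgfr3, was past 1.5-fold, beside the 4.42% of all genes that were lower by this fold.

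**Figure D2:**
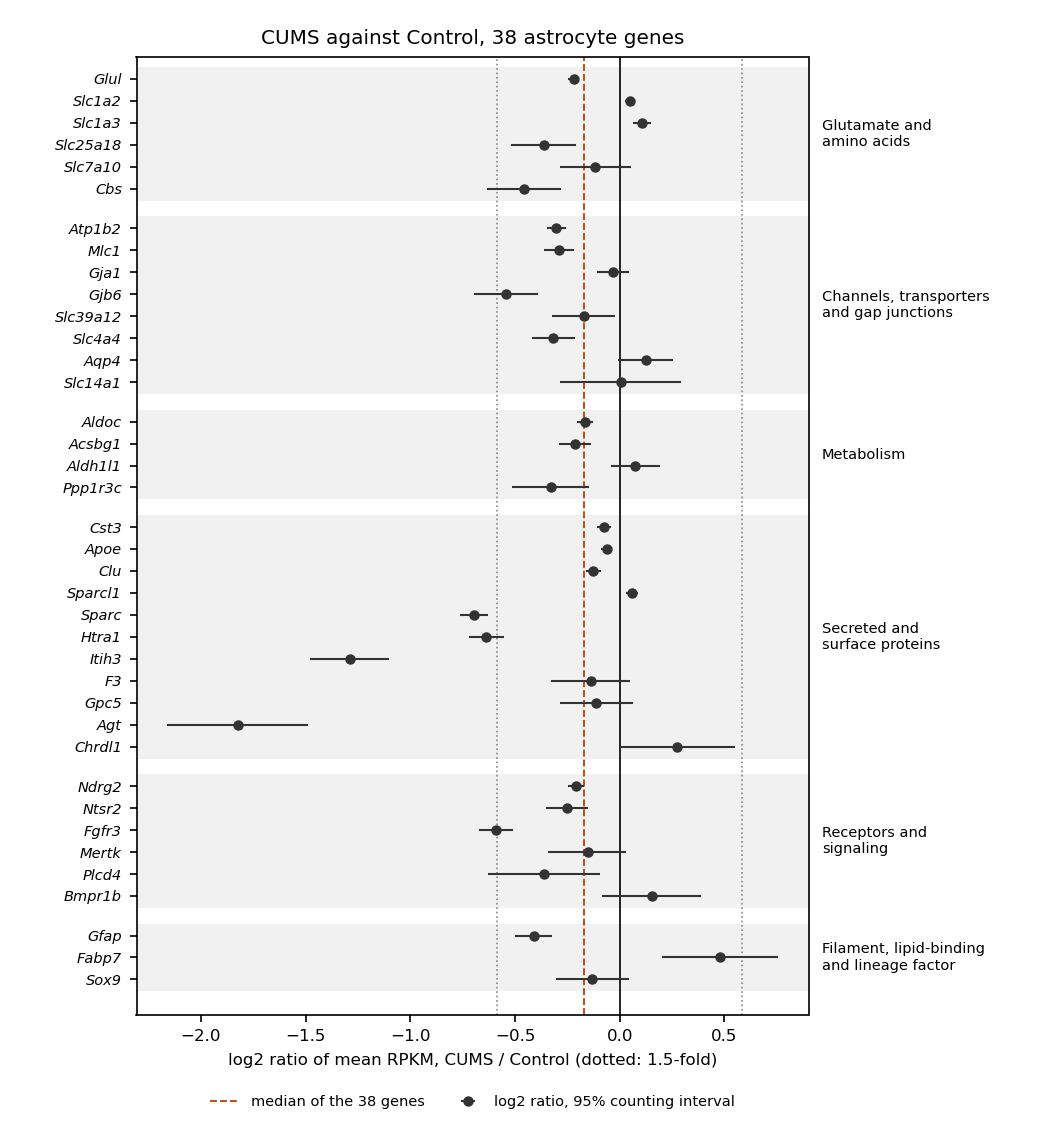
log2 ratio of mean RPKM, CUMS over Control, for each of the 38 genes in the same order and groups, with its 95% counting interval as a bar, the 1.5-fold limits as dotted lines and the median of -0.17 as a dashed line. Of the intervals, 23 lie under 0, 4 lie above 0 and 11 hold 0, and Agt and Itih3 lie far to the left of the rest.

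The secreted and cell surface proteins (11 genes) held the largest single differences, with 4 of the 5 genes past 1.5-fold, the same 4 that the study lists. As a group they had 9 lower genes and a median ratio of -0.13, the median nearest to 0 among the groups by role. Agt encodes angiotensinogen, the precursor of the angiotensin peptides, which astrocytes make in the brain. It lies on chromosome 8 (124556587 to 124569706, GRCm38). Its mean was 12.2 RPKM in Control (336 estimated fragments) and 3.46 RPKM in CUMS (96 fragments), which left 28.3% of the Control level. The log2 ratio was -1.82 (-2.16 to -1.49), 3.54-fold lower, and only 5 of the 9397 genes of at least 5 RPKM had a lower ratio. Among the 38 genes Agt went from place 31 in level in Control to the last place in CUMS. The neighboring gene Cog2, 4579 bases away, had a ratio of -0.15 (-0.34 to 0.033), and the neighbor on the other side, 2310022B05Rik, of -0.26 (-0.38 to -0.15).

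Itih3 encodes a heavy chain of inter-alpha-trypsin inhibitor, a secreted protein that binds hyaluronan of the matrix. It lies on chromosome 14 (30908572 to 30923787). Itih3 was 19.0 RPKM in Control against 7.79 RPKM in CUMS, a log2 ratio of -1.29 (-1.48 to -1.10), 2.44-fold lower and in place 16 from the lowest among the genes of at least 5 RPKM. These were the only astrocyte genes past 2-fold.

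Sparc (chromosome 11, 55394159 to 55420080) encodes a secreted matrix protein that counteracts its relative SPARCL1, also called hevin, at forming synapses. Microglia and blood vessels express Sparc as well. It was 145 RPKM in Control against 89.3 RPKM in CUMS, a ratio of -0.70 (-0.76 to -0.63). Sparcl1 was far more abundant and did not share this difference, with 477 RPKM in Control, 497 RPKM in CUMS and a ratio of 0.059 (0.032 to 0.085). The level of Sparc per level of Sparcl1 was 0.303 in Control and 0.180 in CUMS. Htra1 (chromosome 7, 130936203 to 130985658), a secreted serine protease, was 96.0 RPKM in Control against 61.7 RPKM in CUMS, a ratio of -0.64 (-0.72 to -0.55).

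The bases before the start of transcription are shown for the 3 genes with the lowest ratios and for Fabp7, the gene with the highest, because they are the extremes of the list. Each run holds the 250 bases upstream of the RefSeq start on GRCm38.p6, written 5′ to 3′ on the strand of the gene. Capitals mark letters that match any of 5 short motifs on either strand. The letters TATAAA stand for the TATA element, TTGGCA for the core of the nuclear factor I site and AACAAT for the core of the SOX site. TTCNNNGAA is the STAT site and AGAACA the core of the glucocorticoid receptor site. In these 4 windows no matches overlapped. The windows are chr8:124569707-124569956 on the minus strand for Agt, chr14:30923588-30923837 on the minus strand for Itih3, chr11:55420081-55420330 on the minus strand for Sparc and chr10:57784673-57784922 on the plus strand for Fabp7.
Agt: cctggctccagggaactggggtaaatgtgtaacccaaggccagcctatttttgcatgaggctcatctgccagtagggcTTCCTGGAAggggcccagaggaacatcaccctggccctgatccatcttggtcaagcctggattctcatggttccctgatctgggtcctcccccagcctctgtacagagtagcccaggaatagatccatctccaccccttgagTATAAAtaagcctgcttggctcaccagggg
Itih3: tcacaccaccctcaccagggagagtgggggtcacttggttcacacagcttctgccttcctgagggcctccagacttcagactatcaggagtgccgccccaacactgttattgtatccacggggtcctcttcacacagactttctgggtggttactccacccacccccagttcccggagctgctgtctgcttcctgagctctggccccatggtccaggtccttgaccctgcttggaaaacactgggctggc
Sparc: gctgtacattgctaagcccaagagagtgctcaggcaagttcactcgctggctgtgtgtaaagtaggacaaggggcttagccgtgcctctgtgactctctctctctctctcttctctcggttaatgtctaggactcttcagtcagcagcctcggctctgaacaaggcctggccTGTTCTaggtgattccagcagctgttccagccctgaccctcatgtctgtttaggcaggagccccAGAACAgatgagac
Fabp7: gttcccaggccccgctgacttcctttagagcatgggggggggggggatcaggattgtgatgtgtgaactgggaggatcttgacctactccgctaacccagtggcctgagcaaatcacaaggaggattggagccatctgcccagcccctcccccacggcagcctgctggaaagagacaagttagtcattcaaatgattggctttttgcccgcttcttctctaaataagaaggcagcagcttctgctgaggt

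The Agt window holds a TATAAA at bases -30 to -25 before the start and a TTCNNNGAA at -172 to -164. That of Sparc holds the letters AGAACA at -14 to -9 and, on the other strand, at -78 to -73. The windows of Itih3 and Fabp7 held 0 matches. Of the 38 genes, 31 had a promoter in the table, some with several starts, and a gene was counted if any of its windows held the letters. TATAAA was found in 8 of these 31 (25.8%), among them Agt, Apoe and Slc1a3, and in 14.3% of 27025 genes. TTCNNNGAA was found in 5 of 31 (Acsbg1, Agt, Aldoc, Ntsr2 and Slc1a3, 16.1%) and in 8.13% of genes. AGAACA was found in 4 of 31 (Apoe, Cst3, Slc1a3 and Sparc, 12.9%) and in 18.2% of genes. TTGGCA (Aldoc and Apoe) and AACAAT (Bmpr1b and Plcd4) were each found in 2 of 31 (6.45%), against 14.1% and 10.9% of genes. Among the 5 genes past 1.5-fold, no motif was found in more than 1 gene. A match of these letters is a description and does not show a bound site.

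The remaining secreted and surface proteins differed little. Cst3 encodes cystatin C, an inhibitor of proteases, and Apoe encodes the main lipoprotein of the brain. Both are also made by microglia. Cst3 was 1373 RPKM in Control against 1304 RPKM in CUMS, a ratio of -0.075 (-0.11 to -0.042). Apoe was 1201 and 1149.8 RPKM, a ratio of -0.063 (-0.090 to -0.036). Clu, which encodes the lipid-binding chaperone clusterin, was 488 and 447 RPKM, a ratio of -0.13 (-0.16 to -0.091). The 3 genes kept 94.9%, 95.7% and 91.6% of their Control levels, and their intervals are narrow because many fragments stand behind them. F3 (tissue factor, which starts blood clotting) had a ratio of -0.14 (-0.33 to 0.050) and Gpc5 (the proteoglycan glypican 5) of -0.11 (-0.28 to 0.064), from 17.6 to 16.0 RPKM and from 13.2 to 12.2 RPKM. Chrdl1, which encodes the secreted BMP antagonist chordin-like 1, was 3.25 RPKM in Control against 3.93 RPKM in CUMS, a ratio of 0.27 (-0.0048 to 0.55).

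Genes of glutamate and amino acid handling (6 genes) did not share a direction. Slc1a2 (GLT-1) and Slc1a3 (GLAST) encode the transporters that take up glutamate at synapses. Slc1a2 was 169 RPKM in Control against 175 RPKM in CUMS, a ratio of 0.048 (0.024 to 0.072), and Slc1a3 was 146 and 158 RPKM, a ratio of 0.11 (0.066 to 0.15). The median absolute ratio of all genes above 100 RPKM was 0.073. Glul encodes glutamine synthetase, which turns the glutamate taken up into glutamine, and was lower, with 684 RPKM in Control, 587 RPKM in CUMS and a ratio of -0.22 (-0.25 to -0.20). Slc25a18, a glutamate carrier of mitochondria, was 38.8 and 30.2 RPKM, a ratio of -0.36 (-0.52 to -0.21). It shares 32 exonic bases with Atp6v1e1 on the other strand (255 and 286 RPKM). Cbs encodes cystathionine beta-synthase, which starts the conversion of homocysteine to cysteine, and was 16.8 and 12.3 RPKM, a ratio of -0.46 (-0.64 to -0.28). The serine transporter gene Slc7a10 was 20.5 and 18.9 RPKM, a ratio of -0.12 (-0.29 to 0.052). None of the 6 reached 1.5-fold, and their median ratio was -0.17.

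Channels, transporters and gap junction proteins (8 genes) had a median ratio of -0.23, with 6 lower and 2 higher and 0 past 1.5-fold. The connexins that join astrocytes into a network differed from each other. Gja1 (connexin 43) was 61.2 RPKM in Control against 59.9 RPKM in CUMS, a ratio of -0.030 (-0.11 to 0.046), while Gjb6 (connexin 30) was 27.1 and 18.6 RPKM, a ratio of -0.54 (-0.70 to -0.39). The level of Gja1 per level of Gjb6 was 2.26 in Control and 3.22 in CUMS. Of the endfoot proteins, the water channel gene Aqp4 was 12.03 and 13.1 RPKM (0.12, -0.0092 to 0.25) and the membrane protein gene Mlc1 was 104 and 85.3 RPKM (-0.29, -0.36 to -0.22). Atp1b2, a subunit of the sodium-potassium pump, was 188 and 152 RPKM, a ratio of -0.30 (-0.35 to -0.26). The bicarbonate transporter gene Slc4a4 had a ratio of -0.32 (-0.42 to -0.21), from 15.5 to 12.5 RPKM, and the zinc transporter gene Slc39a12 of -0.17 (-0.32 to -0.024), from 19.4 to 17.2 RPKM. The urea transporter gene Slc14a1 had almost the same level in both groups, 3.70 and 3.71 RPKM.

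Receptors and signaling genes (6 genes) had a median ratio of -0.23, with 5 lower and 1 higher. Fgfr3, a receptor for fibroblast growth factors (chromosome 5, 33721724 to 33737068), was 48.2 RPKM in Control against 32.0 RPKM in CUMS, a ratio of -0.59 (-0.67 to -0.51). It no longer reached 1.5-fold when CUMS was scaled to the median of all genes or with a pseudocount of 1 RPKM. It shares 998 exonic bases with a transcript of the other strand, and whether the counting used strand is not stated. In all, 8 of the 38 genes share exonic bases with another gene (Fgfr3, Plcd4, Slc25a18, Glul, Slc7a10, Gpc5, Slc1a2 and Aldh1l1), and their values are uncertain to that extent. Plcd4, a phospholipase C, was 6.60 and 5.13 RPKM, a ratio of -0.36 (-0.63 to -0.093), and overlaps Zfp142 on the other strand by 2101 exonic bases (ratio of Zfp142 -0.14). The neurotensin receptor gene Ntsr2 was 75.2 and 63.1 RPKM (-0.25, -0.35 to -0.15). Ndrg2, a gene of the N-myc downstream-regulated family, was 365 and 316 RPKM (-0.21, -0.25 to -0.17). Mertk, a receptor with which astrocytes and microglia engulf debris and synapses, was 9.52 and 8.56 RPKM (-0.15, -0.34 to 0.032). Bmpr1b, a receptor for bone morphogenetic proteins, was the higher gene, with 3.63 and 4.04 RPKM (0.15, -0.084 to 0.39).

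Metabolic genes (4 genes) had a median ratio of -0.19. Aldoc encodes the glycolytic enzyme aldolase C and was 491 RPKM in Control against 438 RPKM in CUMS, a ratio of -0.17 (-0.20 to -0.13). Acsbg1, which activates fatty acids, was 71.3 and 61.4 RPKM (-0.21, -0.29 to -0.14), and Ppp1r3c, which directs a phosphatase to glycogen, was 13.9 and 11.03 RPKM (-0.33, -0.51 to -0.15). Aldh1l1 encodes a folate enzyme and is widely used as a marker of all astrocytes. It was 25.6 and 27.0 RPKM, a ratio of 0.073 (-0.042 to 0.19). The other 3 genes of this group were lower with intervals under 0, while the interval of Aldh1l1 held 0.

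The filament gene Gfap was 60.4 RPKM in Control against 45.4 RPKM in CUMS, a ratio of -0.41 (-0.50 to -0.32), 1.33-fold lower. GFAP is dense in astrocytes of white matter and of the brain surface and sparse in those within cortical gray matter. Sox9, the transcription factor that marks astrocyte nuclei, was 9.23 and 8.42 RPKM, a ratio of -0.13 (-0.31 to 0.043). Fabp7, which encodes a lipid-binding protein of radial glia, astrocytes and oligodendrocyte precursors, was 16.7 and 23.2 RPKM, a ratio of 0.48 (0.20 to 0.76). It was the highest ratio of the list, on 188 and 264 estimated fragments, and in place 65 from the highest among the genes of at least 5 RPKM. Common astrocyte markers had ratios on both sides of 0, with Gfap and Sox9 lower and Slc1a3 higher, while the intervals of Sox9, Aldh1l1 and Aqp4 held 0. The level of Slc1a3 per level of Gfap was 2.42 in Control and 3.47 in CUMS.

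Lower values were found at every level from 5 RPKM upward. Of the 14 genes with a mean of 5 to 20 RPKM over the groups, 12 were lower (median ratio -0.16), where 54.8% of all genes of this level were lower. Of the 10 genes from 20 to 100 RPKM, 9 were lower (median -0.33, all genes 49.5%), and of the 11 genes above 100 RPKM, 8 were lower (median -0.13, all genes 46.2%). Of the 3 genes under 5 RPKM, Slc14a1, Bmpr1b and Chrdl1, 3 of 3 had a higher mean, but each of their counting intervals held 0. Across the 38 genes, the Spearman correlation of the ratio with the level was 0.0043 and with gene length 0.27, against 0.097 and -0.099 over all genes of at least 5 RPKM, given as a description of genes that share their libraries.

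**Figure D3:**
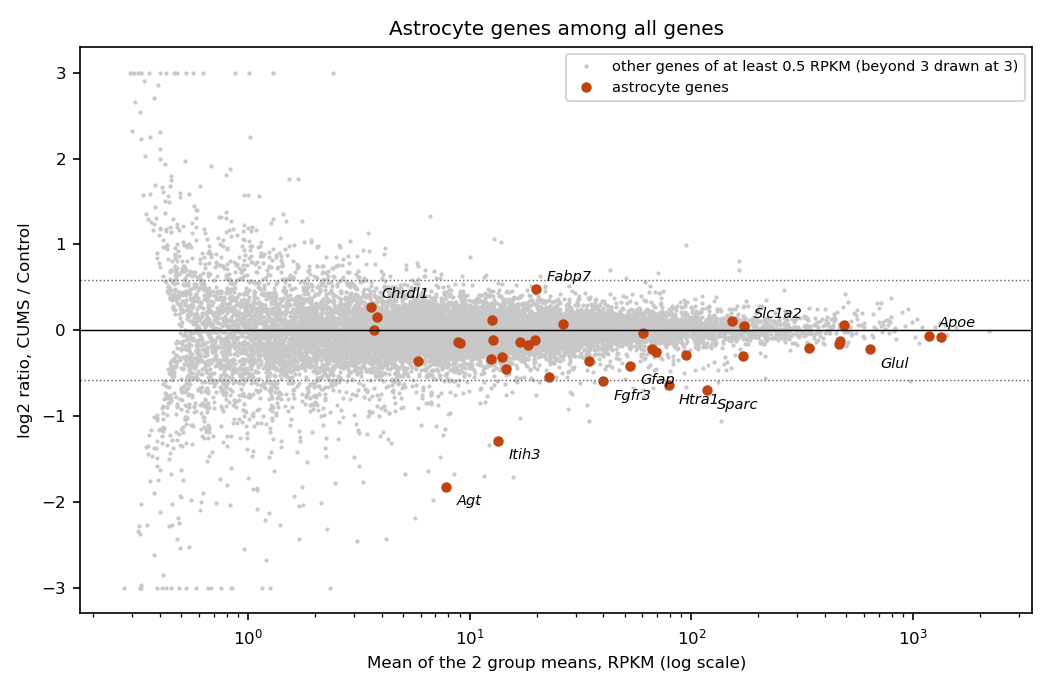
log2 ratio of CUMS over Control against the mean level (log scale) for the 38 astrocyte genes (large points) and all other genes of at least 0.5 RPKM (small points, drawn at 3 or -3 where they lie beyond), with 1.5-fold as dotted lines. The astrocyte genes mostly lie under 0, 5 of them lie under the lower dotted line and Fabp7 lies closest to the upper line.

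A further 43 genes known from astrocytes, none of them among the 38, were also more often lower than higher. Of these, 30 were lower and 13 were higher (69.8% lower, against 53.2% of all genes), with a median ratio of -0.12, and 23 of the 43 intervals held 0. Past 1.5-fold were 3 lower genes (4.42% of all genes) and 0 higher genes (2.79%). Etnppl (listed under its older name Agxt2l1), an enzyme that breaks down phosphoethanolamine, was 9.65 RPKM in Control against 4.47 RPKM in CUMS, a ratio of -1.11 (-1.38 to -0.85). Slc6a11, the GABA transporter GAT-3, had a ratio of -0.66 (-0.72 to -0.60), and Aass, an enzyme of lysine breakdown, was 1.28 and 0.76 RPKM, a ratio of -0.77 (-1.34 to -0.18). Among the most abundant genes of this list, the metallothionein genes Mt3 and Mt1 had ratios of -0.18 and -0.24, and the chloride channel gene Ttyh1 of -0.014. The study lists Etnppl and Slc6a11 as changed. For Slc6a11 it also reports a decrease by quantitative RT-PCR, on tissue used for the sequencing. Without Etnppl and Slc6a11 the median was -0.11 and only Aass was past 1.5-fold.

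Genes of reactive astrocytes did not share a direction. Of 36 listed genes, 35 were in the table and 24 reached 0.5 RPKM, of which 12 were higher and 12 were lower, with a median ratio of -0.013. Past 1.5-fold were 1 higher gene (2.79% of all genes) and 2 lower genes (4.42%). Among all genes with a mean of 0.5 to 5 RPKM, where most of this list lies, 5.80% were higher and 9.32% lower by this fold. The higher gene was Gbp2, an interferon-induced GTPase (0.705 and 1.35 RPKM, ratio 0.93, 0.19 to 1.65). The lower genes were Amigo2, a cell adhesion protein that neurons also make (7.11 and 4.32 RPKM, ratio -0.72, -0.99 to -0.46), and Emp1, a membrane protein (ratio -0.63, -1.41 to 0.15). Vim, the filament gene that reactive astrocytes raise together with Gfap, was 22.7 RPKM in Control against 24.6 RPKM in CUMS, a ratio of 0.12 (-0.044 to 0.28), while Gfap was lower. Lcn2, a marker of strong reactivity, rested on 1 and 5 estimated fragments and cannot be compared at this depth.

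Markers of other cells and of bordering regions differed between the groups as well. Oligodendrocyte markers had a median ratio of -0.43 with 13 of 14 lower. Their summed level was 2095 RPKM in Control against 1443 RPKM in CUMS, of which Mbp held 1167 and 774 RPKM. Ependymal markers, from the cells that line the ventricles, had a median of -1.16 with 7 of 7 lower (summed level 21.2 and 12.1 RPKM), and Foxj1, the factor that makes their cilia, was 4.35 and 1.94 RPKM. Markers of septum and hypothalamus neurons had a median of -1.31 with 9 of 10 lower (summed level of the 14 listed 49.2 and 20.2 RPKM), striatal markers of -0.28 with 9 of 9 lower (summed level 556 and 458 RPKM), and choroid plexus markers of -1.37 with 3 of 3 lower (summed level of the 6 listed 5.45 and 3.11 RPKM, with its defining gene Ttr at 1 and 0 fragments). Excitatory neuron markers of the neocortex were higher in CUMS, with 11 of 11 higher, a median of 0.32 and a summed level of 1726 and 2076 RPKM. Most of that sum came from Camk2a (828 and 958 RPKM) and Slc17a7 (635 and 791 RPKM). The summed level of the 38 astrocyte genes was 6548 RPKM in Control against 5978 RPKM in CUMS, 91.3% of Control. Markers of microglia (12 genes, median 0.062), of endothelial and mural cells (12 genes, 0.010), of meningeal fibroblasts (7 genes, 0.069) and of oligodendrocyte precursors (7 genes, -0.032) had medians near 0. Their summed levels in CUMS were, in the same order, 104.7%, 92.5%, 109.7% and 92.1% of Control. Single members of these lists lay further from 0. Past 1.5-fold were Dcn (0.87, 0.42 to 1.35) and Aldh1a2 (0.76, 0.31 to 1.22) of the meningeal list, both higher (2.79% of all genes). Cldn5 (-0.61, -0.77 to -0.45) of the endothelial list was lower by this fold (4.42% of all genes). Short of 1.5-fold but with intervals off 0, P2ry12 of microglia was at 0.54, and Gpr17 and Vcan of oligodendrocyte precursors were at -0.38 and 0.36. Many astrocyte genes, Agt, Gfap and Slc6a11 among them, are known to be expressed at different levels in astrocytes of different regions. The part of region and of other cells in the ratios of the 38 genes was not tested.

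**Figure D4:**
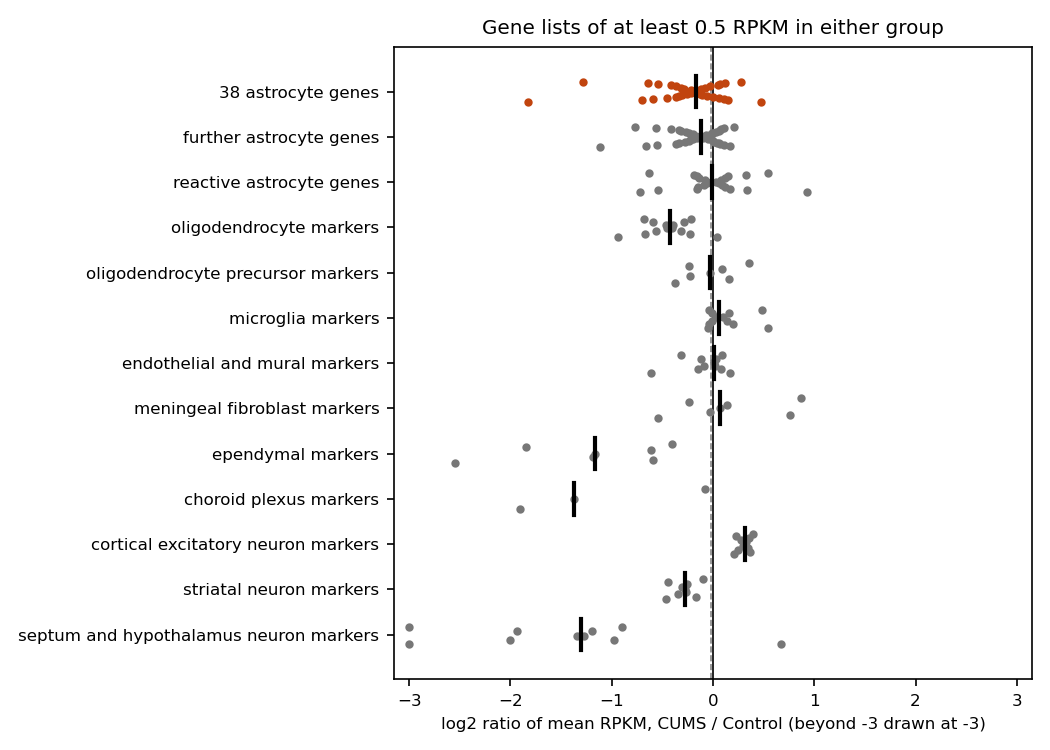
log2 ratios of CUMS over Control (points) and their median (vertical bar) for the 38 astrocyte genes and 12 other gene lists, for members of at least 0.5 RPKM, with the median of all genes as a dashed line and values beyond -3 drawn at -3. The astrocyte genes center slightly under 0, between the lists around 0 and the oligodendrocyte, ependymal, septum and hypothalamus markers further to the left, and cortical excitatory neuron markers lie to the right.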

How the data were processed

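mRNA of 4 mPFC libraries (2 Control, 2 CUMS, grouped by the labels) was sequenced as read pairs, filtered with SolexaQA, and aligned by the authors to mm10 with TopHat 1.0.12 and Bowtie 0.11.3, versions as in the submitters' processing notes. Uniquely aligned reads were counted per gene. Gene annotation and use of strand are not given in the sources used here. The values are RPKM that the authors averaged over the libraries of a group before they were deposited, with a lowest value of 0.01. Gene length in bases was deposited beside them. The authors' own comparison columns, the deposited log2 ratio and the deposited NOISeq probability score, were not used.

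log2 ratios were computed from the means for genes that reached 0.5 RPKM in Control or CUMS (Python 3.11.15, pandas 2.3.3, scipy 1.17.1). limma on single libraries, which had been planned for the case of values per library, was not possible. Fragments were estimated from the step that 1 fragment adds to level times length, in genes under 1000 bases (67.7 in Control and 67.2 RPKM x bases in CUMS, with 86.5% of values in each group within 0.15 of a whole step). They are lower than the read numbers of the study, for reasons not resolved. This estimate and the intervals were tested on simulated data with counting error only, set at a depth close to the estimate. Such data cannot show whether the depth estimated for these libraries is right. The members, gene lists and thresholds were chosen with earlier results of these data known. Each of the 38 members is named. Of other lists, members past 1.5-fold (at most 4 a list) and the 4 most abundant could be named (1 of these is not reported here), while Lcn2, Ttr, P2ry12, Vcan and the neighboring and overlapping genes lie outside this rule and were named after their values were seen. Positions come from RefSeq on GRCm38.p6 and exon overlaps from GENCODE M21, the same build as mm10. Fold threshold, expression minimum, scaling, pseudocount and depth were varied.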

Additional observations from a re-analysis of the deposited data

How the results depend on the processing

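No paired analysis was possible because replicates had been averaged before deposit, and no replicate could be left out for the same reason. The number of astrocyte genes past the fold was 5 at 1.5-fold, 12 at a fold of 5 to 4 (11 lower and, with Fabp7, 1 higher, where 11.3% of all genes were lower and 7.63% higher by that fold) and 2 at 2-fold (Agt and Itih3, both lower, where 1.56% of all genes were lower and 0.912% higher). It was 4, without Fgfr3, with all CUMS levels scaled so that the median gene had no difference (a log2 shift of 0.015) or with a pseudocount of 1 RPKM. The median log2 ratio of the 38 genes ranged from -0.21 (genes of at least 5 RPKM) to -0.15 (without the 4 genes that the study lists), and 29 or 30 genes were lower under every scaling, minimum and pseudocount tried. At 4 times the estimated depth 36 counting intervals left out 0, and at 0.25 of it 23, against 27. Counting the lower genes only among these 27, which gave 23, and leaving out listed genes from the further astrocyte genes were chosen after seeing the data. Depth sets only the counting intervals, while the spread between mice is unknown.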
